A study of Mus musculus with 60 samples.

Results

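Fibrinogen and coagulation proteins are represented here by 10 genes, Fga, Fgb, Fgg, F2, F3, F7, F10, Plg, Serpinc1 and Kng1. They were chosen by gene symbol among the 24411 genes of a mouse RNA-seq series on Kupffer cells, macrophages that reside in the liver. All 10 symbols were found, and 9 passed the filter on low counts, with F3 the exception. There were 3 groups of 5 mice, each mouse sequenced in 4 lanes that were counted once: Trem1-deficient mice given carbon tetrachloride (CCl4), wild-type mice given CCl4, and wild-type mice given corn oil. CCl4 is a solvent that injures hepatocytes. Trem1 encodes a receptor that activates myeloid cells. All mice were C57BL/6J, 8 weeks old and male per the labels, and CCl4 was given once at 2 µl per g, diluted in corn oil, so every mouse received corn oil. Cells were collected 12 h later. The cells were those left after CD11b-binding cells had been taken out, selected again with F4/80 beads. The sources used here do not state which part of Trem1 is missing, nor whether the loss is limited to a cell type, and oil-treated Trem1-deficient mice were not analysed here.

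Fibrinogen is a plasma protein built from pairs of Aα, Bβ and γ chains, encoded by Fga, Fgb and Fgg, which hepatocytes make and secrete. Thrombin, made from prothrombin, turns fibrinogen into fibrin, and plasmin, made from plasminogen, dissolves it. Fibrinogen is also an acute-phase protein, whose synthesis in hepatocytes is known to increase in inflammation through interleukin-6 and STAT3. The liver is the main source of most of these proteins in plasma, whereas tissue factor, factor VII and factor X have also been described in macrophages.

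Libraries held 812320 to 2593004 counts in genes, and levels are given as TMM-scaled CPM. Each transcript is read at its 3' end, so levels of different genes can be compared without a correction for length. All 11 Kupffer cell markers had counts in every group, and their summed level was 44792 to 63180 CPM of the library in Trem1-deficient CCl4, 4472 to 15648 CPM in wild-type CCl4 and 27491 to 64823 CPM in wild-type oil libraries. Of 21 hepatocyte markers, 20 had counts in each group, with Ass1 at 0 in all. Their summed level was 1687 to 14984 CPM in Trem1-deficient CCl4, 9818 to 34486 CPM in wild-type CCl4 and 3969 to 16661 CPM in wild-type oil libraries. Hepatocyte RNA was thus present in every library although hepatocytes had been spun out. The labels hold an index number for each mouse. In the order of the mice these run in 2 rising sequences, 15 to 87 and 4 to 88, which are called index series 1 and 2 here. Series 1 holds all oil mice plus mice 1 and 2 of the Trem1-deficient group, and series 2 holds mice 3 to 5 of that group plus all wild-type CCl4 mice. Xist ranged over 72 to 1552 counts in series 1 and 1 to 31 counts in series 2, and 4 Y-linked genes summed to 0 to 7 counts in series 1 and 134 to 425 counts in series 2, although the labels give only males. Index series and sex-linked counts thus divided the libraries in the same way. Fits with index series as a term, or within a series, also hold the sex-linked difference fixed. An effect of CCl4 in wild-type mice cannot be told apart from this division. In such bulk samples, fewer cells of a type and less RNA per cell cannot be told apart either. A check of the genotype labels alone, by the level of Trem1, held. Trem1 averaged 4.29 ± 4.09 CPM in Trem1-deficient CCl4, 348 ± 168 CPM in wild-type CCl4 and 54.0 ± 31.4 CPM in wild-type oil libraries (SD, n = 5 each).

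The 3 fibrinogen genes lie together within 42.1 kb of chromosome 3 (GRCm38, GENCODE M21). Fgg spans 83007724 to 83015049 and Fga 83026076 to 83033627, both on the plus strand, and Fgb 83040141 to 83049863 on the minus strand. Fgg overlaps Gm30097 on the other strand, as Plg does Slc22a3 and Serpinc1 Zbtb37, and as no source states whether counting used strand, reads of such pairs may be mixed. The promoter windows of the chain genes, 250 bases before to 50 bases after the start in RefSeq (GRCm38.p6), are shown because the 3 genes moved together. RefSeq windows were matched for 8 of the 10 genes. Fga is at chr3:83025903-83026202 on the plus strand, Fgb at chr3:83049814-83050113 on the minus strand and Fgg at chr3:83007474-83007773 on the plus strand. Capitals mark matches, on either strand, to the STAT motif TTCNNNGAA, the interleukin-6 response element core CTGGGAA, the HNF1 motif GTTAAT and the HNF4 motif CAAAGTCCA.
Fga: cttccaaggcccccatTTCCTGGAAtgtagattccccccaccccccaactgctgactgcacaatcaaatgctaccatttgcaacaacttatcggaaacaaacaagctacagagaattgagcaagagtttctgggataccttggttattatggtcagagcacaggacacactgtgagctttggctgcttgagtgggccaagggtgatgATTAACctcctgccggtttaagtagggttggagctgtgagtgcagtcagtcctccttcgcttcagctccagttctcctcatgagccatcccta
Fgb: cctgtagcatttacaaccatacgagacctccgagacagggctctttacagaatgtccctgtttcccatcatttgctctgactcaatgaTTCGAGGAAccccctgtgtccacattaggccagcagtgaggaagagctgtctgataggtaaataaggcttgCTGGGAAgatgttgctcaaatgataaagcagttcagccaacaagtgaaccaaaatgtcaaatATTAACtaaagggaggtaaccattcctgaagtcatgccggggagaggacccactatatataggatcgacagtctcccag
Fgg: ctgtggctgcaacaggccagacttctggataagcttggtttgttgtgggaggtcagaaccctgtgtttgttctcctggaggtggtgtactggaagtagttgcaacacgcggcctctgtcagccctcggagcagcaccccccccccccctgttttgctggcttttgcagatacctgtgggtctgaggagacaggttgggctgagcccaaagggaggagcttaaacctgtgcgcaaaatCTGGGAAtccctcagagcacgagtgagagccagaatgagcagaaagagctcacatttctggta

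The STAT motif matched once in the Fga and once in the Fgb window, and 8.30% of all 32851 windows of the table hold it. The interleukin-6 core matched once in Fgb and once in Fgg, against 11.1% of all windows. The HNF1 motif matched once in each of Fga, Fgb and F2, against 7.10% of windows. The C/EBP motif TTNCNNAA, found in 40.7% of windows and left in lower case, matched in Fga, Fgb, Serpinc1 and F10, and the HNF4 motif, in 0.475% of windows, in none of the 8. Counted with the start site as 1 and no position 0, the STAT matches lay at -234 to -226 in Fga and -162 to -154 in Fgb, and the interleukin-6 cores at -91 to -85 in Fgb and -13 to -7 in Fgg. Both strands were searched, and no capital match overlapped another. A match is a run of letters and was not tested as a binding site.

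The fibrinogen chain genes were higher in wild-type CCl4 than in wild-type oil libraries, with no overlap between the 2 groups. Fga, the Aα chain, had 150.0, 84.3, 639, 732 and 1063 CPM in Trem1-deficient CCl4 mice 1 to 5, against 861, 2064, 2182, 1072 and 2144.5 CPM in wild-type CCl4 mice and 172, 340.5, 72.9, 58.6 and 41.6 CPM in wild-type oil mice. Every wild-type CCl4 mouse stood above every oil mouse, while Trem1-deficient mice 1 and 2 lay within the oil range and mice 3 to 5 above it. Fgb, the Bβ chain, was the most abundant of the 10 genes in each group by its mean, with 417, 307, 998, 2369.6 and 3344 CPM in Trem1-deficient CCl4 mice, 3452, 4841, 4407, 2499.6 and 2136 CPM in wild-type CCl4 mice and 402, 889, 207, 97.9 and 137 CPM in wild-type oil mice. Again mice 1 and 2 of the Trem1-deficient group lay within the oil range and the other 3 above it. Fgg, the γ chain, had 64.8, 83.7, 456, 642 and 837 CPM in Trem1-deficient CCl4 mice, 562, 2296.5, 1661, 1729.7 and 1353 CPM in wild-type CCl4 mice and 127, 242, 32.1, 35.5 and 74.1 CPM in wild-type oil mice. The division within the Trem1-deficient group was the same for all 3 chains, and it followed the index series, with mice 1 and 2 in the series of the oil mice. It also followed the hepatocyte marker sum, 2660 and 1687 CPM in mice 1 and 2 against 4769 to 14984 CPM in mice 3 to 5.

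**Figure D1:**
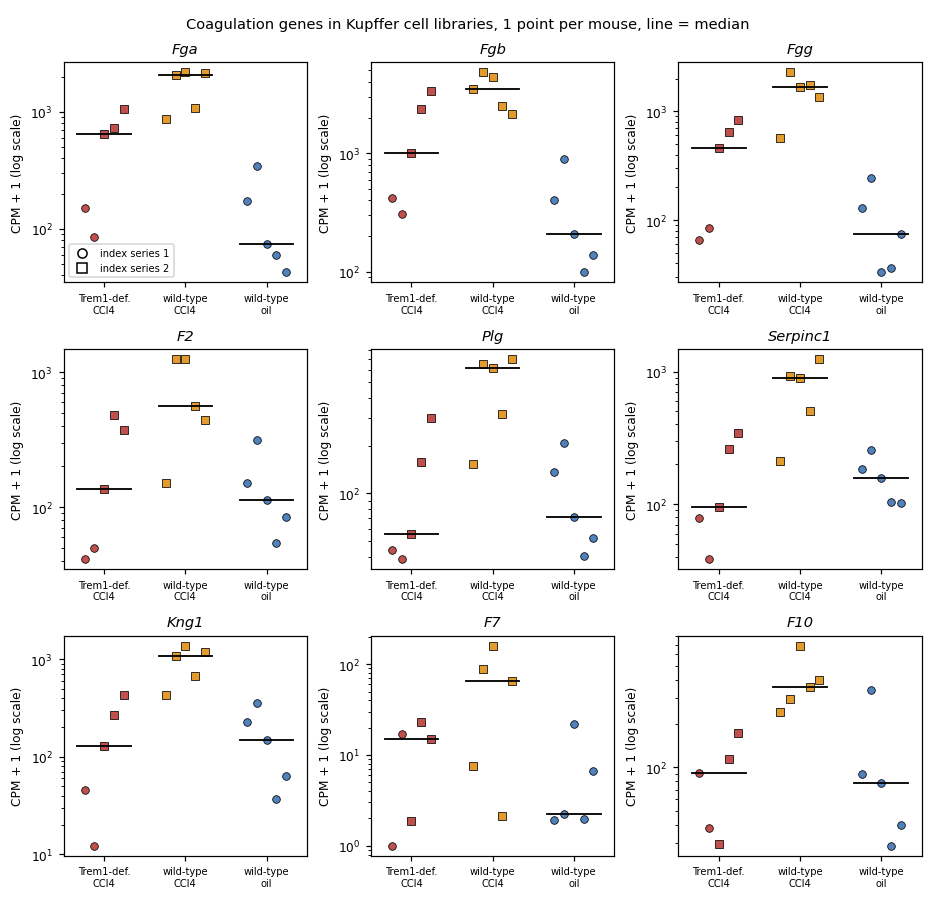
CPM + 1 on a log scale (vertical axes) of the 9 tested coagulation genes in each mouse, by group; circles are index series 1, squares index series 2, and lines are group medians. Fga, Fgb, Fgg and Kng1 show every wild-type CCl4 mouse above every oil mouse, and Trem1-deficient mice 1 and 2 (circles) lie low for the chains.

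In the fit across all 9001 tested genes, Fga rose 12.2-fold in wild-type CCl4 against wild-type oil libraries (log2 fold change 3.61 ± 0.76 SE, edgeR quasi-likelihood adjusted p = 0.0139). Fgb rose by 3.33 ± 0.77 on the log2 scale (adjusted p = 0.0251), and Fgg by 3.90 ± 0.81 (adjusted p = 0.012). With Plg and Serpinc1, 5 of 9 tested members were called higher in this comparison, where 3.04% of all tested genes were, and 0 were called lower. All 9 had an unadjusted p under 0.05, as did 19% of tested genes in either direction, and DESeq2 called all 9 and 11.3% of the genes it gave an adjusted p. Groups did not overlap for 4 members, the 3 chains and Kng1, against 3.13% of tested genes that were higher in every wild-type CCl4 mouse than in any oil mouse. With index series as a term, no member was called, and the chains had log2 fold changes of 0.82 ± 0.78, 0.70 ± 0.87 and 0.79 ± 0.77 for Fga, Fgb and Fgg. That fit takes its estimate of the series from the 5 Trem1-deficient mice. The call of Fgb was lost when wild-type CCl4 mouse 3 or oil mouse 1, 3, 4 or 5 was left out (adjusted p = 0.0541, 0.0639, 0.0763, 0.0534 and 0.0663), while Fga and Fgg kept theirs in all 10 such fits. Without oil mouse 2, the highest of its group for each chain, the log2 fold changes were larger, 4.28 for Fga, 4.04 for Fgb and 4.5 for Fgg. In Trem1-deficient CCl4 against oil they were then 2.63, 2.82 and 2.63, and still not called.

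Between the genotypes after CCl4, the chains were not called. Of the 9 tested members, 8, all but Fgb, were lower in Trem1-deficient mice at an edgeR unadjusted p under 0.05. Of all tested genes, 15.2% reached such a p in either direction. Fga had a log2 fold change of -1.64 ± 0.71 (adjusted p = 0.282), Fgb of -1.22 ± 0.72 (adjusted p = 0.452) and Fgg of -1.87 ± 0.74 (adjusted p = 0.24) in Trem1-deficient against wild-type CCl4 libraries. Within index series 2, where 3 Trem1-deficient mice stand against 5 wild-type CCl4 mice, the values were -1.02 ± 0.41, -0.62 ± 0.40 and -1.22 ± 0.43, and none was called. Against wild-type oil libraries, Trem1-deficient CCl4 libraries had log2 fold changes of 1.97 ± 0.72 for Fga, 2.10 ± 0.74 for Fgb and 2.04 ± 0.75 for Fgg (adjusted p = 0.736, 0.701 and 0.76). In that comparison edgeR called 0 of 9 members, where 0.178% of tested genes were called higher. An unadjusted p under 0.05 was reached by 3, the chains, and by 4.66% of tested genes. DESeq2 called 1, Fgb (adjusted p = 0.0428), and 0.94% of the genes it gave an adjusted p. No member was higher in every Trem1-deficient CCl4 mouse than in any oil mouse, against 1.63% of tested genes. Within index series 1, where 2 Trem1-deficient mice stand against the 5 oil mice, the chains had values of -0.20 ± 0.69, 0.08 ± 0.68 and -0.43 ± 0.68. Both comparisons with the Trem1-deficient group share mice with the first one, and a comparison with oil differs in genotype as well as treatment.

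Fibrinogen chain counts were next set against hepatocyte marker counts of the same library, because the level of hepatocyte RNA varied between libraries. As a share of the 21 markers' summed counts, Fga was 6.52, 5.69, 14.4, 8.47 and 7.44% in Trem1-deficient CCl4 mice 1 to 5, 6.89, 5.76, 5.69, 4.38 and 5.53% in wild-type CCl4 mice and 2.06, 1.83, 1.10, 1.48 and 0.844% in wild-type oil mice. Fgb was 18.1, 20.7, 22.5, 27.4 and 23.4% in Trem1-deficient CCl4, 27.6, 13.5, 11.5, 10.2 and 5.51% in wild-type CCl4 and 4.81, 4.77, 3.13, 2.48 and 2.78% in wild-type oil mice. Fgg was 2.82, 5.65, 10.3, 7.43 and 5.86% in Trem1-deficient CCl4, 4.50, 6.41, 4.33, 7.07 and 3.49% in wild-type CCl4 and 1.52, 1.30, 0.485, 0.899 and 1.5% in wild-type oil mice. For each chain, all 10 mice given CCl4 stood above all 5 given oil, including Trem1-deficient mice 1 and 2, which share the index series of the oil mice. In CPM, the chains of Trem1-deficient mice 1 and 2 lay within the oil range. Their marker sums, 2660 and 1687 CPM, lay below those of every oil mouse (3969 to 16661 CPM). The lowest wild-type CCl4 share of Fgb, in mouse 5, was close to the highest oil share.

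**Figure D2:**
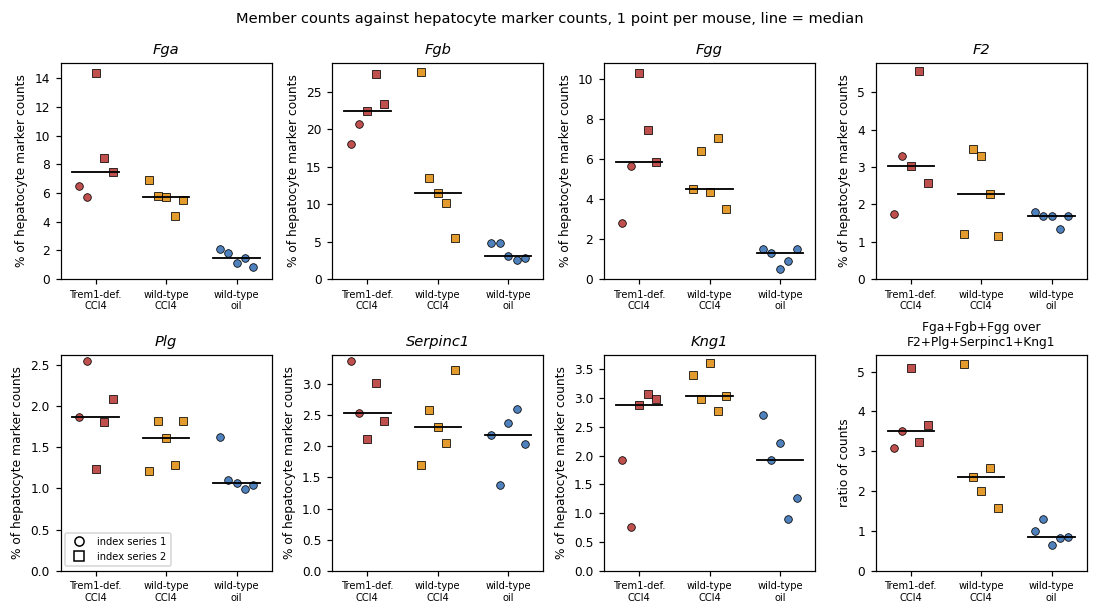
Counts of 7 liver-secreted members as a percentage of the summed counts of 21 hepatocyte markers, and the ratio of the 3 fibrinogen chains to 4 other members (last panel), in each mouse by group; circles are index series 1, squares index series 2, lines medians. The chains and their ratio are higher in all mice given CCl4 than in those given oil. Taken singly, F2, Plg and Serpinc1 overlap between the groups, and Kng1 is higher in every wild-type CCl4 mouse than in any oil mouse.

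By this share, the 3 chains and Kng1 were higher in every wild-type CCl4 mouse than in any oil mouse, as were 0.611% of tested genes. The 3 chains were also higher in every Trem1-deficient CCl4 mouse than in any oil mouse, as were 0.911% of tested genes. The sum of F2, Plg, Serpinc1 and Kng1 was 8.9 to 13.5% of marker counts in Trem1-deficient CCl4 mice. It was 7.52 to 10.9% in wild-type CCl4 and 5.83 to 8.3% in wild-type oil mice. By this sum, too, every Trem1-deficient CCl4 mouse stood above every oil mouse, while wild-type CCl4 and oil mice overlapped. Alb made up 13.9 to 18.4% of the marker counts in Trem1-deficient CCl4, 11.1 to 33.9% in wild-type CCl4 and 18.3 to 23.1% in wild-type oil libraries. With Alb left out, the lowest share of Fga was 6.63% in Trem1-deficient and 5.77% in wild-type CCl4 mice, against a highest share of 2.60% in oil mice. Several of the 21 markers, Alb and Ttr among them, are known to fall in the acute-phase response. The chains were also set against the summed counts of F2, Plg, Serpinc1 and Kng1, which are no fixed reference either. The ratio was 3.08, 3.51, 5.09, 3.22 and 3.65 in Trem1-deficient CCl4 mice, 5.19, 2.36, 1.99, 2.59 and 1.58 in wild-type CCl4 mice and 1.01, 1.30, 0.642, 0.833 and 0.853 in wild-type oil mice. The CCl4 groups overlapped each other and neither overlapped the oil group. Against 7 metabolic enzymes among the markers, a choice made after the values were seen, the ratio was 3.84 to 18.5 in Trem1-deficient CCl4, 2.03 to 12.3 in wild-type CCl4 and 0.528 to 2.11 in wild-type oil mice. Here wild-type CCl4 mouse 5, the lowest of its group, fell just below the highest oil mouse.

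**Figure D3:**
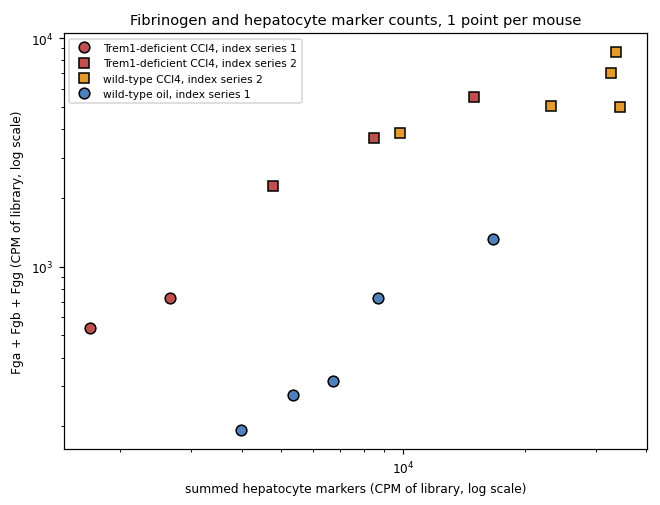
Summed counts of Fga, Fgb and Fgg (vertical axis) against summed hepatocyte marker counts (horizontal axis), both as CPM of the library on log scales, 1 point per mouse; colour is the group, circles are index series 1 and squares index series 2. The oil mice span 3969 to 16661 CPM of markers. Trem1-deficient mice 1 and 2 lie below that span and wild-type CCl4 mice 2 to 5 above it, and the 4 mice given CCl4 within it have 2251 to 5496 CPM of fibrinogen, against 193 to 1317 CPM in the oil mice. All 4 are in index series 2 and all oil mice in series 1, so treatment and series cannot be told apart here.

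When the log2 of the summed hepatocyte markers was added to the fit as a term, the 3 chains were called in both comparisons with oil. Against wild-type oil, wild-type CCl4 libraries had log2 fold changes of 1.94 ± 0.36 for Fga, 2.16 ± 0.38 for Fgb and 2.07 ± 0.41 for Fgg (edgeR adjusted p = 0.00221, 0.00151 and 0.00358). No other member was called, and 1.36% of tested genes were called higher. Against wild-type oil, Trem1-deficient CCl4 libraries had 2.52 ± 0.32, 2.53 ± 0.36 and 2.5 ± 0.35 for Fga, Fgb and Fgg (adjusted p = 1.31e-05, 0.00012 and 3.98e-05). The chains were again the members called, with 0.456% of tested genes called higher. F2 had 1.07 ± 0.35 (adjusted p = 0.373) and Plg 0.66 ± 0.33 (adjusted p = 0.999). Between the genotypes after CCl4, the same fit gave 0.58 ± 0.42, 0.37 ± 0.42 and 0.44 ± 0.46 for the chains (adjusted p = 0.996 to 0.999), with 0 of 9 members called and 0 at an unadjusted p under 0.05, where 6.27% of tested genes were. Those 3 values have the opposite sign to the values without the term. Without wild-type CCl4 mouse 1 they were 1.2 for Fga (adjusted p = 0.392) and 1.69 for Fgb (adjusted p = 0.0509). In Trem1-deficient CCl4 against oil, the 3 calls held whichever of the 10 mice was left out. In wild-type CCl4 against oil, leaving out wild-type CCl4 mouse 1 ended the calls of Fga (1.42, adjusted p = 0.0789) and Fgb (1.06, adjusted p = 0.116). That mouse had the lowest hepatocyte marker sum of its group, 9818 CPM, and alone of its group lay within the oil range of 3969 to 16661 CPM. Wild-type CCl4 mice 2 to 5 had 23270 to 34486 CPM. The marker-term values of this comparison thus rest largely on mice beyond the range shared by the 2 groups. Within index series 1 and with the marker term, Trem1-deficient CCl4 mice differed from oil mice by 2.64 ± 0.63 for Fga (adjusted p = 0.0355) and 3.27 ± 0.47 for Fgb (adjusted p = 0.000659), and by 2.04 ± 0.81 for Fgg (adjusted p = 0.309). Both of those mice had lower marker sums (2660 and 1687 CPM) than every oil mouse (3969 to 16661 CPM), so these values extend the marker relation beyond the range shared by the 2 groups, and without the term the values were close to 0 or negative. With both the marker sum and the index series as terms, no chain was called in either comparison with oil. Whether the marker term removes all differences in hepatocyte RNA was not tested.

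**Figure D4:**
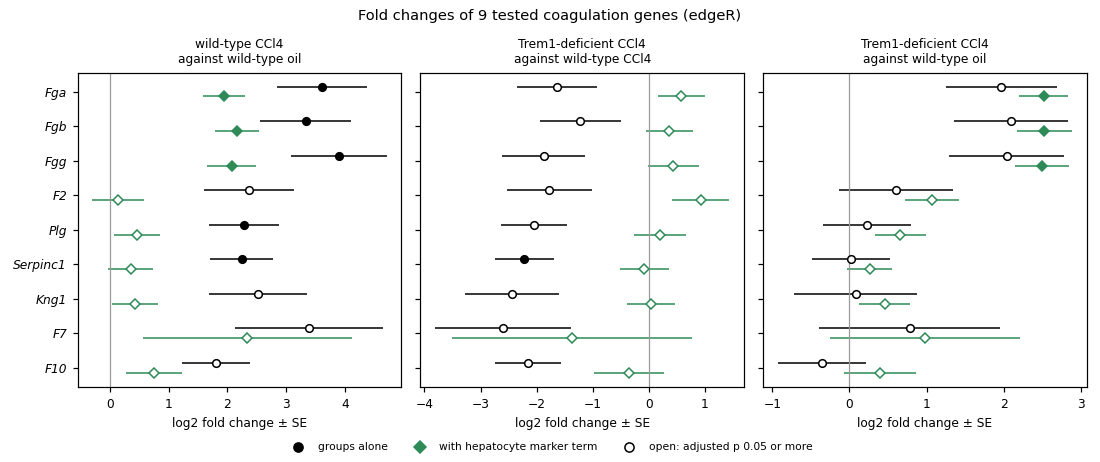
Log2 fold changes with SE (horizontal axes) of the 9 tested members in 3 comparisons, from the fit on groups alone (black circles) and with the hepatocyte marker term (green diamonds); filled symbols have an edgeR adjusted p under 0.05. With the term, the 3 chains have 1.94 to 2.53 against oil in both CCl4 groups, while F2, Plg, Serpinc1 and Kng1 have 0.14 to 0.46 in wild-type CCl4 and 0.26 to 1.07 in Trem1-deficient CCl4 against oil.

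Antithrombin, encoded by Serpinc1 (chromosome 1, 160978585 to 161005863), inhibits thrombin and factor Xa. It had 77.5, 37.6, 93.9, 261 and 343 CPM in Trem1-deficient CCl4 mice, 212, 924, 887, 502 and 1246.6 CPM in wild-type CCl4 mice and 182, 257, 158, 103 and 100.3 CPM in wild-type oil mice. The first 3 Trem1-deficient mice lay below every oil mouse, and all wild-type CCl4 mice but mouse 1 lay above every oil mouse. Serpinc1 rose by 2.24 ± 0.53 on the log2 scale in wild-type CCl4 against oil (adjusted p = 0.0139), a call held in all 10 fits with 1 mouse left out. In Trem1-deficient against wild-type CCl4 it fell by 2.22 ± 0.53 on the log2 scale (adjusted p = 0.0282), the 1 of 9 members called there, where 1.28% of tested genes were called lower. That call was lost without Trem1-deficient mouse 1 or 3 or wild-type CCl4 mouse 2, 3 or 5 (adjusted p = 0.0616 to 0.0883), and within index series 2 the value was -1.68 ± 0.52 (adjusted p = 0.187). DESeq2 called 7 of 9 members in that comparison, Fgb and F7 being the exceptions, and 9.01% of the genes it gave an adjusted p. As a share of hepatocyte marker counts, Serpinc1 was 2.12 to 3.37% in Trem1-deficient CCl4, 1.70 to 3.22% in wild-type CCl4 and 1.38 to 2.60% in wild-type oil mice, so the 3 groups overlapped. With the marker term its values were -0.08 ± 0.44 between genotypes and 0.35 ± 0.39 in wild-type CCl4 against oil.

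Plasminogen, the precursor of the fibrin-dissolving protease plasmin, is encoded by Plg (chromosome 17, 12378608 to 12419385). Plg had 42.8, 37.6, 54.3, 156 and 298 CPM in Trem1-deficient CCl4 mice, 151, 653, 616, 313 and 701.5 CPM in wild-type CCl4 mice and 135, 205, 70.0, 39.4 and 51.1 CPM in wild-type oil mice. Wild-type CCl4 mouse 1 again stood within the oil range, below oil mouse 2. Plg rose by 2.28 ± 0.60 on the log2 scale in wild-type CCl4 against oil (adjusted p = 0.0264), but the call was lost in 7 of the 10 fits with 1 mouse left out (adjusted p = 0.0508 to 0.0788), for each oil mouse but mouse 2 and for wild-type CCl4 mice 2, 3 and 5. Between genotypes it had -2.05 ± 0.59 (adjusted p = 0.0727). Its share of hepatocyte marker counts was 1.23 to 2.54% in Trem1-deficient CCl4, 1.21 to 1.82% in wild-type CCl4 and 0.997 to 1.62% in wild-type oil mice.

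Prothrombin, the precursor of thrombin, is encoded by F2 (chromosome 2, 91625320 to 91636414). F2 had 40.1, 48.8, 134, 481 and 369 CPM in Trem1-deficient CCl4 mice, 151, 1250.4, 1259, 557 and 441 CPM in wild-type CCl4 mice and 149, 314, 111, 52.8 and 82.7 CPM in wild-type oil mice. It was not called in wild-type CCl4 against oil (2.37 ± 0.77, adjusted p = 0.0986) or between genotypes (-1.77 ± 0.76, adjusted p = 0.275). F2 was 1.74 to 5.56% of hepatocyte marker counts in Trem1-deficient CCl4, 1.14 to 3.49% in wild-type CCl4 and 1.34 to 1.79% in wild-type oil mice, and thus spread more widely after CCl4 than in the oil mice. Kininogen, encoded by Kng1 (chromosome 16, 23057865 to 23082078), is a cofactor of contact activation and the precursor of bradykinin. Kng1 had 44.4, 11.2, 128, 265 and 427 CPM in Trem1-deficient CCl4 mice, 425, 1073, 1385, 677 and 1175 CPM in wild-type CCl4 mice and 226, 359, 147, 35.5 and 62.1 CPM in wild-type oil mice. Wild-type CCl4 and oil mice did not overlap, but their difference was not called (2.52 ± 0.84, adjusted p = 0.11), nor was that between genotypes (-2.44 ± 0.84, adjusted p = 0.177). Its share of hepatocyte marker counts was 0.754 to 3.07% in Trem1-deficient CCl4, 2.77 to 3.61% in wild-type CCl4 and 0.899 to 2.71% in wild-type oil mice, so that the gap between the last 2 groups was narrow. Mice carry a closely related gene, Kng2, whose level was 3.39 to 101 CPM in Trem1-deficient CCl4, 5.53 to 293 CPM in wild-type CCl4 and 1.92 to 82.6 CPM in wild-type oil mice, and no source states how counting divided reads between the pair. With index series as a term, F2 and Kng1 turned to -0.51 ± 0.89 and -0.78 ± 0.92 in wild-type CCl4 against oil.

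Tissue factor, encoded by F3 (chromosome 3, 121723537 to 121735048), is the membrane protein that starts clotting by binding factor VII. It was close to absent, with 1 count in Trem1-deficient CCl4 mouse 1, 2 counts in mouse 4 and 0 in the other 13 libraries. The limit that a count of 0 allows, 3 counts, was 1.16 to 3.69 CPM per library, so a difference in F3 between groups below such levels was not detectable at this depth. Factor VII, encoded by F7 (chromosome 8, 13026034 to 13035809), is the plasma partner of tissue factor. F7 had 0, 47, 2, 27 and 24 counts in Trem1-deficient CCl4 mice, 10, 88, 167, 2 and 46 counts in wild-type CCl4 mice and 1, 1, 29, 1 and 12 counts in wild-type oil mice. In each group some mice were near 0 and others well above, and its log2 fold change of 3.38 ± 1.26 in wild-type CCl4 against oil was not called (adjusted p = 0.12). Between genotypes it had -2.60 ± 1.21 (adjusted p = 0.298).

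Factor X, which converts prothrombin to thrombin, is encoded by F10 (chromosome 8, 13037308 to 13056676), whose start lies 1498 bases past the end of F7 on the same strand. F10 had 90.9, 36.9, 28.7, 113.5 and 172 CPM in Trem1-deficient CCl4 mice, 241, 293, 688, 354 and 399.9 CPM in wild-type CCl4 mice and 88.3, 338, 76.4, 27.8 and 39.2 CPM in wild-type oil mice. Every Trem1-deficient mouse stood below every wild-type CCl4 mouse, as in 2.12% of tested genes, and the difference of -2.16 ± 0.59 just missed the threshold (adjusted p = 0.0529). In wild-type CCl4 against oil the value was 1.80 ± 0.58 (adjusted p = 0.0739), and without oil mouse 2, the one oil mouse in the range of the CCl4 mice, it was 2.77 (adjusted p = 0.00105). As a share of hepatocyte marker counts F10 was 3.95, 2.49, 0.647, 1.31 and 1.2% in Trem1-deficient CCl4 mice 1 to 5, against 0.818 to 1.93% in wild-type CCl4 and 0.705 to 1.82% in wild-type oil mice. The first 2 of these mice, those in index series 1, lay above all others. Within that series and with the marker term, F10 was 2.79 ± 0.66 higher on the log2 scale in Trem1-deficient CCl4 than in oil mice (adjusted p = 0.0355), whereas over all mice the value was 0.40 ± 0.47 (adjusted p = 0.999). Without the term it was -0.81 ± 0.83 within that series, where the marker sums of the groups do not overlap.

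The order of mean levels changed with the group. In wild-type oil libraries Fgb led with 347 ± 325 CPM (SD, n = 5), followed by Kng1, Serpinc1, F2, Fga, F10, Fgg and Plg between 166 and 100.2 CPM, and the ranges of neighbours in this order overlapped. F7, at 5.92 ± 8.52 CPM, lay below them without overlap, and F3 was at 0. In wild-type CCl4 libraries the 3 chains took the first 3 places, with 3467 ± 1170 CPM for Fgb, 1665 ± 643 CPM for Fga and 1520 ± 635 CPM for Fgg, ahead of Kng1 at 947 ± 389 CPM. They also led in Trem1-deficient CCl4 libraries, with 1487 ± 1324, 534 ± 412 and 417 ± 341 CPM, ahead of F2 at 215 ± 199 CPM. In both CCl4 groups the ranges of neighbours in this order overlapped from Fgb down to F10, and F7, next in the order, lay below F10 without overlap. Of the fibrinogen counts, Fgb took 47.7 to 66.0% in Trem1-deficient CCl4, 37.9 to 70.8% in wild-type CCl4 and 51.0 to 66.4% in wild-type oil mice, so no shift between chains stood out from the spread between mice.

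Across the 15 mice, log2(CPM + 1) of the chains correlated with each other at a Pearson r of 0.95 to 0.97, which is a description of libraries that share their hepatocyte RNA. Plg, Serpinc1 and Kng1 correlated with each other at 0.94 to 0.97, above their r of 0.75 to 0.87 with the chains. F7 reached 0.48 to 0.62 with the other members. The genes whose pattern was most like the mean of the 3 chains, among non-members with a mean of 10 CPM or more, were Itih4 (r = 0.984), Hpx (0.969), Orm1 (0.968), Serpina3k (0.966) and Itih3 (0.965) over 15 mice. They encode secreted plasma proteins, Hpx the haem carrier hemopexin and Orm1 the acute-phase protein orosomucoid. Those most like F10 were H2-Q10 (0.907) and Mst1, Gc, Cyp3a13 and Cdh1 (0.902 each). Those most like F7 were Homer2 (0.787), Gm38426 and Mir22hg (0.785 each), Apof (0.743) and Sord (0.742).

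Of 49 further genes of the pathway in 5 lists, 38 were tested, and 12 rose and 0 fell in wild-type CCl4 against wild-type oil, where 3.04% of all tested genes were called higher. With index series as a term, Anxa2 alone of these 12 kept its call (2.89 ± 0.61, edgeR adjusted p = 0.0166). The rises of the others thus cannot be told apart from the division by index series and sex-linked counts. Among other secreted clotting factors and cofactors, 2 of 7 tested rose, F12 (factor XII of the contact system, 4.01 ± 0.80 on the log2 scale, adjusted p = 0.00289) and F9 (factor IX, 3.53 ± 1.01, adjusted p = 0.0488). Among secreted inhibitors, 1 of 7 rose, Serpina10, the protein Z-dependent inhibitor of factor Xa (4.88 ± 0.98, adjusted p = 0.00474). The median log2 fold changes of these 2 lists were 1.56 and 1.30, beside 0.06 over all tested genes. The call of F9 was lost in 8 of 10 fits with 1 mouse left out (adjusted p = 0.0603 to 0.126), in all but those without oil mouse 1 or wild-type CCl4 mouse 1. Its log2 fold change was 2.66 without wild-type CCl4 mouse 5, 4.23 without oil mouse 1 and 3.30 to 3.68 in the other 7 fits that lost the call. That of F12 was 4.91 without oil mouse 1.

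Among regulators of the fibrin network and of plasmin, 6 of 11 tested genes rose, and the median was 3.20. With the hepatocyte marker term, 2 of these 6 were called in wild-type CCl4 against oil, Fgl1 and Anxa2, beside 1.36% of all tested genes called higher. Fgl1, a fibrinogen-like protein secreted by hepatocytes, averaged 393 ± 380 CPM in Trem1-deficient CCl4, 1180.4 ± 971 CPM in wild-type CCl4 and 45.4 ± 23.8 CPM in wild-type oil mice, a log2 fold change of 4.70 ± 0.87 in wild-type CCl4 against oil (adjusted p = 0.00549). Cpb2, the carboxypeptidase that slows fibrin breakdown, rose by 4.43 ± 0.89 (adjusted p = 0.00289). Plaur, the urokinase receptor, rose by 3.59 ± 0.94 (adjusted p = 0.0189). S100a10 and Anxa2, which together form a receptor for plasminogen on cell surfaces, rose by 3.34 ± 0.90 (adjusted p = 0.0428) and 1.98 ± 0.37 (adjusted p = 0.00112). F13a1, the A subunit of factor XIII, which cross-links fibrin and is known from monocytes and macrophages, rose by 3.20 ± 0.80 (adjusted p = 0.0157). The call of S100a10 was lost in 7 of the 10 fits with 1 mouse left out (adjusted p = 0.0582 to 0.117), that of F13a1 in 4 and that of Plaur in 3. F13a1 reached 571 CPM in wild-type CCl4 mouse 4, against 55.8 to 136 CPM in the other 4 mice, and without that mouse its log2 fold change was 2.25 (adjusted p = 0.119). Without oil mouse 2 it was 4.61 for F13a1 and 4.73 for S100a10. Single mice moved other called values too, to 4.18 for Plaur without oil mouse 3, 5.07 for Cpb2 without oil mouse 5 and 4.10 for Fgl1 without wild-type CCl4 mouse 2.

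**Figure D5:**
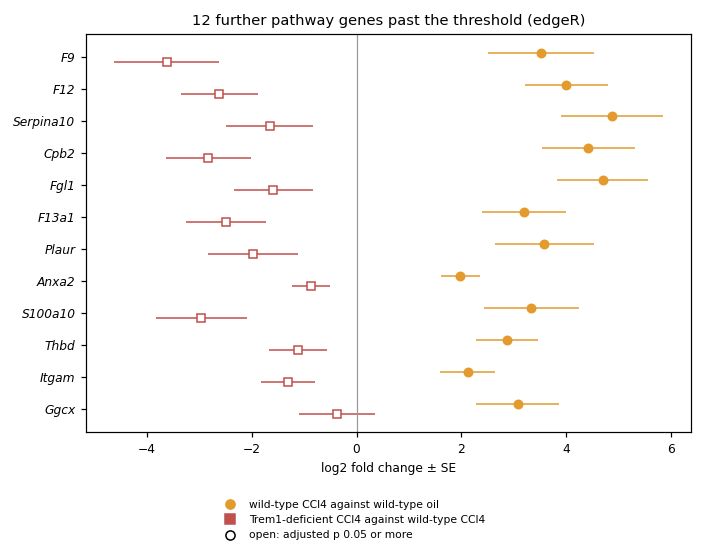
Log2 fold changes with SE (horizontal axis) of the 12 further pathway genes past the threshold, in wild-type CCl4 against wild-type oil (orange circles) and Trem1-deficient CCl4 against wild-type CCl4 (red squares); open symbols have an edgeR adjusted p of 0.05 or more. All 12 are positive and called in the first comparison and negative without a call in the second.

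On cell surfaces, 2 of 8 tested genes rose, Thbd, the thrombin receptor thrombomodulin (2.88 ± 0.59, adjusted p = 0.00282), and Itgam, the CD11b chain of the integrin that binds fibrinogen (2.12 ± 0.53, adjusted p = 0.0139). Cells carrying CD11b had been taken out during isolation, and monocyte markers, Itgam being 1 of the 9, summed to 365 to 1408.5 CPM in Trem1-deficient CCl4, 648 to 2612 CPM in wild-type CCl4 and 437 to 663 CPM in wild-type oil libraries. Of 11 neutrophil markers, 10 were in the table and had counts in each group. They summed to 358 to 3681 CPM in Trem1-deficient CCl4, 1096 to 10249 CPM in wild-type CCl4 and 226 to 1569 CPM in wild-type oil libraries, and neutrophils carry CD11b too. The part of either cell type in the results for Itgam, Plaur and S100a10 was not tested. In the vitamin K cycle 1 of 5 rose, Ggcx, the carboxylase that activates several clotting factors (3.08 ± 0.79, adjusted p = 0.0168). The call of Ggcx was lost in 3 of the 10 fits with 1 mouse left out, and its value was 3.69 without oil mouse 1. The call of Itgam was lost in 1 fit, without wild-type CCl4 mouse 3 (adjusted p = 0.0598). In Trem1-deficient against wild-type CCl4, edgeR called 0 of the 38, where it called 1.28% of all tested genes lower and 0.778% higher. An unadjusted p under 0.05 was reached by 15 of them and 15.2% of all tested genes, and DESeq2 called 10 of them, beside 9.01% of all genes with an adjusted p. In Trem1-deficient CCl4 against wild-type oil, edgeR called 0 of the 38, where it called 0.178% of all tested genes higher. There 7 had an unadjusted p under 0.05 and DESeq2 called 3, beside 4.66% and 0.94% of all genes. With the hepatocyte marker term, 3 of the 38 were called in wild-type CCl4 against oil, Fgl1 (2.68 ± 0.49, adjusted p = 0.00155), Anxa2 (2.19 ± 0.47, adjusted p = 0.007) and Itgam (3.01 ± 0.75, adjusted p = 0.0259). In Trem1-deficient CCl4 against oil the same fit called 2 of the 38, Fgl1 (3.18 ± 0.40, adjusted p = 1.31e-05) and Serpina10 (3.30 ± 0.76, adjusted p = 0.0382). Of all tested genes, this fit called 1.36% higher in wild-type CCl4 against oil and 0.456% higher in Trem1-deficient CCl4 against oil. Between genotypes it called 0 of the 38, with 1 at an unadjusted p under 0.05, beside 6.27% of all tested genes. With index series as a further term, Anxa2 kept its call in wild-type CCl4 against oil (2.90 ± 0.60, edgeR adjusted p = 0.00822). Fgl1 and Itgam lost theirs there (adjusted p = 0.166 and 0.0617). In Trem1-deficient CCl4 against oil, Fgl1 (2.40 ± 0.63, adjusted p = 0.212) and Serpina10 (1.35 ± 1.05) were then not called.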

How the data were processed

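RNA from isolated Kupffer cells was made into 3' tag libraries (QuantSeq) per the labels' protocols. The submitters' processing notes name Trimmomatic, STAR 2.5.1a, Partek 6.6 and mm10, with no role or order. The annotation and the strand setting were not given in sources used here. The authors deposited raw read counts per gene, 1 column per mouse, in 24415 lines, of which 24411 are genes. The 4 tally lines stayed out of library sizes and tests, and genes held 12.6 to 28.8% of all reads. The 4 lanes of a mouse share its column and were counted as 1 sample. Libraries of a group differed by more than sampling noise, with a chi-square of at least 10.8 per degree of freedom.

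Counts were fitted in R 4.3.3 with edgeR 4.0.16 (filterByExpr, TMM, robust quasi-likelihood test) over 3 groups, 9001 genes and 12 residual degrees of freedom. The common biological coefficient of variation was 0.888. Each SE is the absolute log2 fold change divided by the square root of the F statistic of its test. P-values were adjusted by Benjamini-Hochberg over all tested genes, with a threshold of 0.05, and measure the spread between mice. The hepatocyte term is the centred log2 of the summed CPM of 21 markers. The procedure was tested on simulated data. Limits for a count of 0 use 3 counts, and without molecular identifiers they cover counting error only.

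The members and lists were chosen with earlier results of these data known. The text names all members, every listed pathway gene past the threshold, and the 5 genes with the highest Pearson r to a pattern. Positions are from GENCODE M21 and promoters from RefSeq (GRCm38.p6). Alternatives were DESeq2 1.42.0 and its size factors, library totals, no filter, index series or replicate number as a term, fits within an index series, the marker term with and without Alb, and each mouse left out. Fits joining the marker term to the index series, to the removal of Alb or to left-out mice were added after seeing the data.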

Additional observations from a re-analysis of the deposited data

Results flagged for a closer look

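Of 72 sets of 5 mice examined, 11 held a mouse far from the other 4, where chance gives about 1 in 20 sets of values without skew. All 11 were the highest of their set, on a linear scale, on which skew raises that number. The ratio of fibrinogen chain counts to those of F2, Plg, Serpinc1 and Kng1 was 5.09 in Trem1-deficient CCl4 mouse 3, against 3.08 to 3.65 in the other mice of that group. The same ratio was 5.19 in wild-type CCl4 mouse 1, against 1.58 to 2.59 in the others.

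F7 reached 20.7 CPM in wild-type oil mouse 3, against 0.939 to 5.73 CPM in the other oil mice. F10 reached 338.0 CPM in wild-type oil mouse 2, against 27.8 to 88.3 CPM.

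F9 stood at 58.0 CPM in Trem1-deficient CCl4 mouse 5, with 0.0 to 13.9 CPM in the others, and at 599.1 CPM in wild-type CCl4 mouse 5, with 43.2 to 176 CPM in the others. S100a10 stood at 123.6 CPM in Trem1-deficient CCl4 mouse 5, with 35.7 to 45.7 CPM in the others, and at 156.5 CPM in wild-type oil mouse 2, with 2.82 to 29.6 CPM in the others. F13a1 stood at 570.7 CPM in wild-type CCl4 mouse 4, with 55.8 to 136 CPM in the others, and at 77.6 CPM in wild-type oil mouse 2, with 0.96 to 13.2 CPM in the others. F12 stood at 46.0 CPM in wild-type oil mouse 1, with 1.25 to 13.4 CPM in the others. Oil mouse 2, which accounts for 3 of these values, also had the highest hepatocyte marker level of the oil group, 16661 CPM. It was highest of that group, too, for neutrophil (1569 CPM), monocyte (663 CPM), sinusoidal endothelial (3082 CPM), stellate, T and NK, and B cell markers. For Kupffer cell (27491 CPM) and platelet markers it was lowest, and for cholangiocyte markers neither. The part of these levels in the 3 values was not tested.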

How the results depend on the processing

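In wild-type CCl4 against oil, 462 genes changed. The count was 1010 with DESeq2, 813 without the filter on low counts, 37 with index series as a term, 198 with the hepatocyte marker term, 196 with that term without Alb and 68 with the marker and index series terms together. Of members, 5 were called, against 9 with DESeq2, 3 with the marker term with or without Alb, and 0 with index series alone or beside the marker term. In that comparison F2 and Kng1 turned to -0.51 and -0.78 with index series, and to -0.03 and -0.22 with both terms.

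Between genotypes after CCl4, 185 genes changed. The count was 306 with library totals, 616 with DESeq2, 563 without the filter, 77 with index series, 57 within index series 2, 18 with the marker term, 12 with it without Alb and 20 with both terms. The 1 member called became 2 with DESeq2 size factors or library totals, 7 with DESeq2, 3 without the filter, and 0 with index series, within index series 2, with either marker term or with both terms. With the marker term, that term without Alb, and both terms, the log2 fold changes turned positive at 0.58, 0.60 and 0.52 for Fga, 0.37, 0.46 and 0.37 for Fgb, 0.44, 0.41 and 0.29 for Fgg, 0.93, 0.82 and 0.88 for F2, and 0.20, 0.09 and 0.27 for Plg. Kng1 turned to 0.04 with the marker term and 0.09 with it without Alb. Within index series 2, the marker-term values of Fga and Fgb turned to -0.00069 and -0.16.

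In Trem1-deficient CCl4 against oil, 21 genes changed. The count was 74 with DESeq2, 73 without the filter, 11 with index series, 50 with the marker term, 49 with it without Alb and 10 with both terms. Members called were 0, against 1 with DESeq2 and 3 with either marker term. Fga and Fgg turned to -0.22 and -0.45 with index series and to -0.20 and -0.43 within index series 1. The chains called with the marker term, 3 in each comparison with oil, were 0 with index series as a further term.

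With 1 mouse left out, genes changed numbered 302 to 759 in wild-type CCl4 against oil, 87 to 508 between genotypes and 12 to 28 in Trem1-deficient CCl4 against oil. Members called numbered 3 to 7 in the first of these and 0 to 3 between genotypes. The chains called with the marker term in wild-type CCl4 against oil numbered 1 to 3, the 1 being without wild-type CCl4 mouse 1.

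Same-numbered mice did not deviate together (correlations of -0.0585 to 0.0386), so their numbers do not pair them. With the replicate block, members called were 0 in each comparison, and genes changed were 365, 158 and 21. The cause of these changes was not tested. Libraries of 812320 to 2593004 counts limit F3 and F7 most.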
